A study of Mus musculus with 8 samples.

Results

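The endothelial receptors and transcription factors described here are 10 genes, namely Etv2, Kdr, Cdh5, Pecam1, Tek, Tie1, Fli1, Erg, Sox7 and Sox18. They were chosen by name in the probe annotation of a mouse expression array, and all 10 were found, on 13 probes, among 34727 gene names with a value. All 10 also passed the filter that kept 25888 genes for testing. Erg, Cdh5 and Fli1 passed it through day 6 groups alone: neither Erg probe was above background on any day 0 array, and Cdh5 and Fli1 were above background on 1 of the 2 day 0 arrays of each genotype.

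Blood vessels begin as endothelial cells that arise from mesoderm. The ETS factor Etv2 acts early and briefly in mesoderm that will form endothelium and blood, and the ETS factors Fli1 and Erg and the SoxF factors Sox7 and Sox18 act with and after it. Kdr is a receptor for VEGF on mesoderm and endothelium, Tek and Tie1 are the paired receptor tyrosine kinases of the angiopoietin pathway, and Cdh5 (VE-cadherin) and Pecam1 are adhesion molecules of endothelial junctions. Nkx2-5, the homeobox factor mutated in this study, belongs to the heart lineage, which shares a mesodermal origin with early endothelium.

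Messenger RNA was measured in mouse embryonic stem (ES) cells that were wild type (WT) or heterozygous for R141C, a missense change in Nkx2-5 (Nkx25 in the labels). Each genotype was sampled undifferentiated at day 0 and after 6 days of differentiation toward cardiac progenitors in embryoid bodies, which are aggregates grown without LIF and plated for the last day. That gave 4 groups, WT day 0, R141C day 0, WT day 6 and R141C day 6, each of 2 biological replicates on 2 single-colour Agilent arrays. No other allele or agent is named for any group. How many lines or clones stand for a genotype is not given in the sources used here, and no sorting of endothelial cells is described in the labels.

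Between 30989 and 39185 probes per array were well above background (55.8% to 70.5%). Replicate arrays correlated across genes with r of 0.983 and 0.986 at day 0 and of 0.994 and 0.982 at day 6. R141C day 6 replicate 2 was closer to the WT day 6 arrays (r of 0.988 and 0.989) than to its own replicate. The ES cell factors Pou5f1 and Nanog were on every array, at log2 signals of 4.99 to 5.93 and 5.72 to 6.46 at day 0 and of 2.48 to 3.91 and 2.93 to 3.56 at day 6. All arrays were on 1 slide, with day 0 in one column and day 6 in the other, so that slide column and day cannot be told apart.

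Signals are given as log2 of the processed signal, with the 75th percentile of each array set to 0, so that 1 unit is a doubling. Levels of different probes are not compared, because probes bind with different strength. Where a gene had more than 1 probe, its brightest probe over the 8 arrays was used for the tests, and the other is given beside it. A gene was called changed where its Benjamini-Hochberg adjusted p from limma, over all 25888 genes, was under 0.05. In cultures of mixed cells, more cells of a type and more RNA per cell cannot be told apart.

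Most of the endothelial genes were higher at day 6 than at day 0, in both genotypes. In WT, 7 of the 10 were called higher and none lower, namely Cdh5, Tek, Tie1, Fli1, Erg, Sox7 and Sox18. Of all tested genes, 24.0% were called in WT and 11.0% were called higher. These 7 genes were also called higher in R141C, where 15.6% of all tested genes were called and 7.60% were called higher. Erg, Cdh5 and Fli1 entered the test through their day 6 groups alone, which favours a higher value at day 6, and their calls support nothing. Of the 7 other genes, 4 were called higher in each genotype, namely Tek, Tie1, Sox7 and Sox18. With a filter on all 8 arrays, Tek, Sox7 and Sox18 were called in each genotype among 6 genes tested. Of all 21101 genes that passed this filter, 24.2% were called in WT and 16.2% in R141C, in either direction. With the other probes of Etv2, Kdr and Erg, an alternative chosen after the data had been seen, 9 of 10 were called higher in each genotype. Pecam1 was the exception, and Erg, Cdh5 and Fli1 are among the 9. The median log2 difference of all 10 genes, Erg, Cdh5 and Fli1 included, was 2.81 in WT and 4.08 in R141C (2.80 and 3.68 with Erg at its lower bound). That of all tested genes was -0.12 and -0.03. Both day 6 arrays lay above both day 0 arrays for 8 of the 10 genes in each genotype, as for 29.8% of all genes in WT and 25.6% in R141C. Erg, Cdh5 and Fli1, which the filter favoured in this way, are among these 8. The others are Etv2, Tek, Tie1, Sox7 and Sox18. For Pecam1 in WT both day 6 arrays lay below, as for 41.5% of all genes. Tie1 and Sox18 were called in both genotypes in each of the 8 fits that left out 1 array. So were Cdh5 and Erg, which entered the test through day 6 groups alone. In the same cultures all 8 ES cell pluripotency markers were called lower in WT and 7 of 8 in R141C, where all 8 differences were negative. Of the 25888 tested genes, 3346 were called lower in WT and 2081 in R141C.

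The probes of Kdr, Tek and Tie1 are shown because the call for Kdr turned on the probe, and because Tek and Tie1 are related receptors whose probes cover like stretches. Sequences are written 5′ to 3′ and positions are those of the array's annotation on mm9. The exon of each probe was not looked up here. Both Kdr probes lie on chromosome 5, on the minus strand, at 76330395 to 76330454 for the brightest and at 76329309 to 76329368 for the other, 1086 bases apart. The first 30 of the 60 bases of each are given. The Tie1 probe lies on chromosome 4 at 118144132 to 118144191 (minus strand) and the Tek probe on chromosome 4 at 94540624 to 94540683 (plus strand). In the last pair, capitals mark the bases that match when the probes are aligned without gaps.
Kdr, brightest probe: tgtttaaatggaagtggtcctgtcccggct
Kdr, other probe: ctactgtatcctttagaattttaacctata
Tie1 probe: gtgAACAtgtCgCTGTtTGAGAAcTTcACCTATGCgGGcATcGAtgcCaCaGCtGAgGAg
Tek probe: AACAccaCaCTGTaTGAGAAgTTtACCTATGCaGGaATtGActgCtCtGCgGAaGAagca
Tie1 and Tek share 39 of 57 aligned bases. The brightest Kdr probe has 55.0% G and C and the other 35.0%.

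The VEGF receptor Kdr gave different answers on its 2 probes. On the brightest probe, log2 signals were 2.33 and 2.40 in WT day 0, 2.31 and 2.10 in R141C day 0, 2.42 and 2.34 in WT day 6, and 3.36 and 2.18 in R141C day 6. Only R141C day 6 replicate 1 stood above a narrow band that held the 7 other arrays. The difference between day 6 and day 0 was 0.02 ± 0.37 (SE) in WT and 0.56 ± 0.37 in R141C, and neither passed (limma, adjusted p of 0.981 and 0.356).

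On the other Kdr probe, signals were -0.80 and -2.18 in WT day 0, -2.12 and 0.29 in R141C day 0, 3.29 and 3.22 in WT day 6, and 4.32 and 3.14 in R141C day 6. Every day 6 array was above every day 0 array. This probe is printed in 10 spots, of which 9 were used on R141C day 0 replicate 1, and the spots of 1 array had an SD of 0.03 to 0.22, far less than the gap between replicate arrays at day 0. By this probe Kdr was 26.9-fold higher at day 6 in WT (log2 difference 4.75 ± 0.84, limma adjusted p = 0.00973). In R141C the difference was 4.64 ± 0.84, a 24.9-fold rise (adjusted p = 0.0151). The reason for the disagreement between the probes was not tested. R141C day 0 replicate 2, which was the highest day 0 array for this probe, also had the highest summed signal of 7 primitive streak and mesoderm markers at day 0 (14.1, against 2.09 to 7.04 on the other 3 arrays, in units of each array's 75th percentile). T, at a log2 signal of 3.63 on that array, weighed most in this sum. The array also had the highest day 0 sums of smooth muscle and fibroblast markers (500.4) and of cardiomyocyte markers (39.3). It did not for blood cell, visceral endoderm or ES cell markers. The part of any of these cells in the Kdr value was not tested.

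Tie1, the receptor that partners Tek, had signals of -5.86 and -5.45 in WT day 0, -6.36 and -5.75 in R141C day 0, -0.30 and -0.12 in WT day 6, and -0.03 and -0.39 in R141C day 6. The 4 day 6 arrays lay close together, far above the day 0 arrays, of which 1 of R141C was not above background. The rise was 43.6-fold in WT (5.45 ± 0.29, limma adjusted p = 0.000332). In R141C the fitted log2 difference was 5.84 ± 0.29 (limma adjusted p = 0.000456). No fold is given there, since 1 R141C day 0 array was not above background. Both adjusted p were the smallest among the 10 genes in their genotype.

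Tek, the angiopoietin receptor itself, was above background on all 8 arrays. Its signals were -2.31 and -3.08 in WT day 0, -2.96 and -2.91 in R141C day 0, -1.18 and -0.91 in WT day 6, and -1.54 and -1.18 in R141C day 6. The days did not overlap, but the step between them was smaller than for Tie1. Tek rose 3.14-fold in WT (1.65 ± 0.30, limma adjusted p = 0.0101) and 2.97-fold in R141C (1.57 ± 0.30, adjusted p = 0.0173). Leaving out WT day 6 replicate 2 ended the WT call (adjusted p = 0.0768), and leaving out either R141C day 0 array or R141C day 6 replicate 2 ended the R141C call (0.0854, 0.0641 and 0.0691).

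Cdh5, the cadherin of endothelial junctions (probe on chromosome 8, 106668159 to 106668218), had signals of -5.42 and -7.26 in WT day 0, -5.80 and -5.82 in R141C day 0, 0.70 and 0.96 in WT day 6, and 1.17 and 0.36 in R141C day 6. It went from the edge of detection to a clear signal on every day 6 array. The fitted log2 difference was 7.17 ± 0.58 in WT (limma adjusted p = 0.000726) and 6.58 ± 0.58 in R141C (adjusted p = 0.00148). No fold is given, since 1 of the 2 day 0 arrays of each genotype was not above background.

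Pecam1 (chromosome 11, 106540864 to 106540923), an adhesion molecule that ES cells are also known to carry, behaved otherwise. Signals were -0.52 and -1.23 in WT day 0, -0.63 and -1.56 in R141C day 0, -1.66 and -1.51 in WT day 6, and -0.94 and -1.06 in R141C day 6. In WT the day 6 arrays lay below the day 0 arrays, and in R141C they fell between them. The difference was -0.71 ± 0.37 in WT and 0.10 ± 0.37 in R141C, and neither passed (limma, adjusted p of 0.207 and 0.883). The 95% interval was -1.59 to 0.16 in WT and -0.78 to 0.97 in R141C.

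Etv2, the early ETS factor, was read by probes on chromosome 7 at 31418776 to 31418835 and at 31419633 to 31419692. On the brightest, signals were 1.45 and 0.67 in WT day 0, 1.41 and 1.11 in R141C day 0, 2.79 and 2.33 in WT day 6, and 3.63 and 2.26 in R141C day 6. Each day 6 array exceeded each day 0 array. The difference was 1.50 ± 0.48 in WT (2.83-fold) and 1.68 ± 0.48 in R141C (3.21-fold), and both missed the threshold (limma, adjusted p of 0.0666 and 0.0625).

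The other Etv2 probe gave 0.18 and -0.67 in WT day 0, 0.09 and -0.14 in R141C day 0, 1.67 and 1.25 in WT day 6, and 2.41 and 1.20 in R141C day 6. Its arrays fell in the same order, and its differences passed. They were 1.70 ± 0.46 in WT (3.26-fold, limma adjusted p = 0.0383) and 1.84 ± 0.46 in R141C (3.57-fold, adjusted p = 0.0406). Both Etv2 probes were above background on all 8 arrays, undifferentiated cells included.

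Fli1, an ETS factor of blood and endothelium (chromosome 9, 32229857 to 32229916), had signals of -5.29 and -8.76 in WT day 0, -4.87 and -6.13 in R141C day 0, 0.53 and 1.29 in WT day 6, and 2.55 and 0.75 in R141C day 6. The day 0 values scattered widely near or under background, and the day 6 values were all far above them. The fitted log2 difference was 7.93 ± 1.15 in WT (limma adjusted p = 0.00491) and 7.16 ± 1.15 in R141C (adjusted p = 0.0102), with standard errors larger than for any other of the 10 genes. No fold is given, since 1 of the 2 day 0 arrays of each genotype was not above background. Without R141C day 0 replicate 2 the R141C call was lost (adjusted p = 0.0529).

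Erg, the related ETS factor, was read by probes on chromosome 16 at 95581954 to 95582013 and, 143 bases away, at 95581811 to 95581870. On the brightest, signals were -7.50 and -7.65 in WT day 0, -8.38 and -8.16 in R141C day 0, -3.18 and -2.94 in WT day 6, and -1.45 and -3.14 in R141C day 6. The day 0 values are not above background, so the rise is given as a lower bound, taken against the lowest signal that was well above background on the same arrays. Erg was at least 11.1-fold higher at day 6 in WT (limma adjusted p = 0.00193) and at least 15.8-fold higher in R141C (adjusted p = 0.00135). The other probe gave -5.09 and -3.74 in WT day 6 and -3.66 and -4.93 in R141C day 6, was not above background at day 0 either, and passed in both genotypes (adjusted p of 0.00458 and 0.0071).

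Sox7, a SoxF factor of early endothelium that also marks extraembryonic endoderm (chromosome 14, 64569419 to 64569478), was detected on every array. Signals were -3.15 and -2.10 in WT day 0, -4.40 and -3.54 in R141C day 0, -0.03 and -0.20 in WT day 6, and 1.83 and -0.21 in R141C day 6. The R141C day 0 arrays lay below the WT day 0 arrays, and 1 R141C day 6 array stood well above the other 3. Sox7 rose 5.70-fold in WT (2.51 ± 0.69, limma adjusted p = 0.0415) and 27.5-fold in R141C (4.78 ± 0.69, adjusted p = 0.00707). The WT call was lost in 6 of the 8 fits that left out 1 array, with only the fits without an R141C day 6 array keeping it. The R141C call was kept in all 8.

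Sox18, the SoxF factor of vascular and lymphatic endothelium (chromosome 2, 181404789 to 181404848), had signals of -2.18 and -3.07 in WT day 0, -3.41 and -2.89 in R141C day 0, 0.29 and 0.66 in WT day 6, and 0.57 and -0.13 in R141C day 6. The genotypes overlapped on both days and the days were well apart. The rise was 8.59-fold in WT (3.10 ± 0.39, limma adjusted p = 0.00307) and 10.4-fold in R141C (3.37 ± 0.39, adjusted p = 0.00363).

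**Figure D1:**
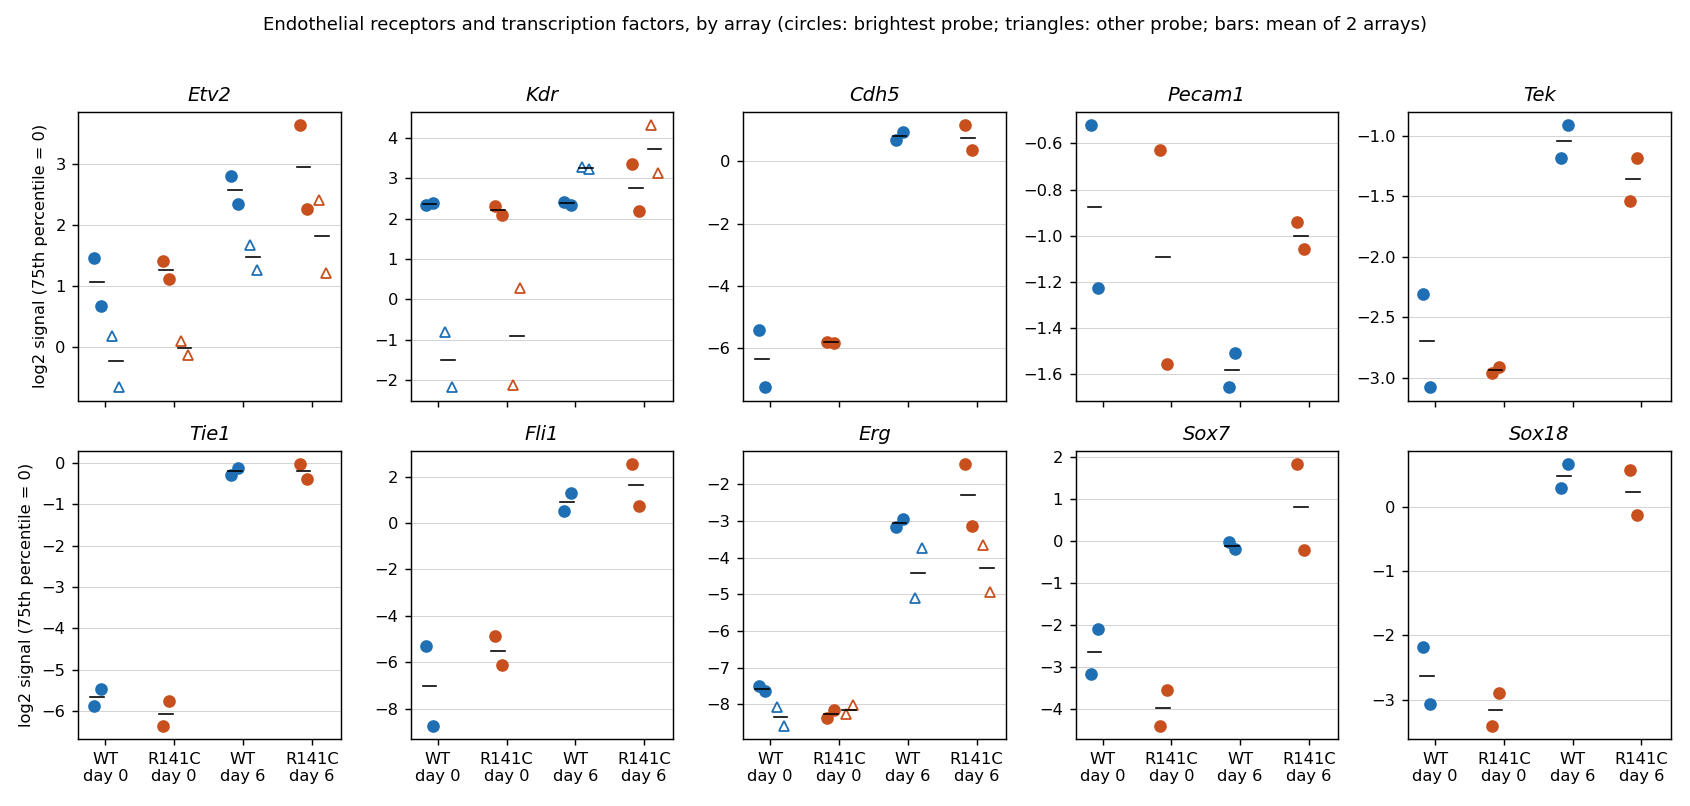
Log2 signal (75th percentile of the array set to 0) of the 10 genes on each of the 8 arrays, with groups on the x axis, circles for the brightest probe, triangles for the other probe of Etv2, Kdr and Erg, and bars for the mean of 2 arrays. The y axes differ between panels. Cdh5, Tie1, Fli1, Erg, Sox7 and Sox18 step up between the days, Pecam1 does not, and the 2 Kdr probes differ in their change between the days.

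**Figure D2:**
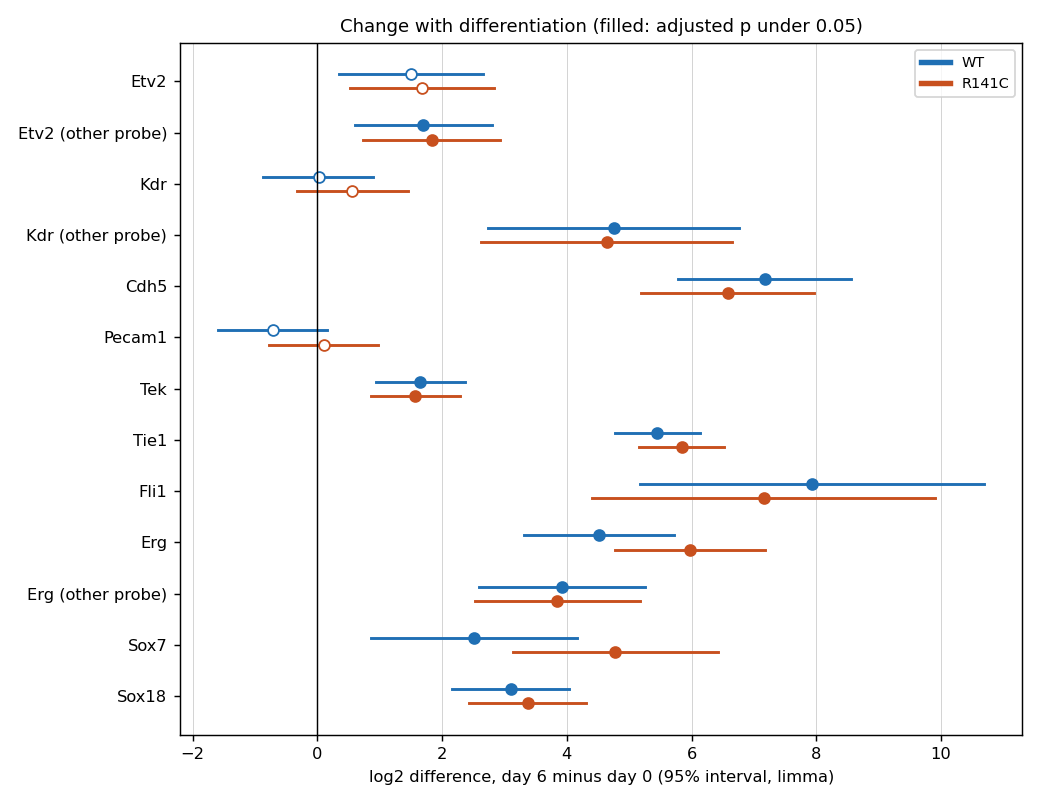
Day 6 minus day 0 difference in log2 signal for the 13 probes, with limma's 95% interval, in WT (blue) and R141C (orange); filled circles passed an adjusted p of 0.05. The largest differences are those of Fli1 and Cdh5, those of the brightest Kdr probe and of Pecam1 have intervals that include 0, and the intervals of the genotypes overlap for every probe. Values for Erg rest on day 0 signals not above background, and those for Fli1 and Cdh5 in part.

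The start regions of 5 of the 10 genes (Etv2, Kdr, Tek, Tie1 and Erg, the last with 3 starts) were in the RefSeq table for GRCm38.p6. They are shown for 4 genes because ETS factors such as Etv2, Fli1 and Erg are among the genes described, and ETS sites are known features of endothelial promoters. Capitals mark CAGGAA or CCGGAA, forms of the ETS core, searched on both strands in the 250 bases before each start. The matches read as the reverse complement, since each lies on the strand opposite to the gene. The windows are chr7:30635853-30636102 (minus strand) for Etv2, chr5:75978456-75978705 (minus) for Kdr, chr4:94739039-94739288 (plus) for Tek and chr4:118489850-118490099 (minus) for Tie1.
Etv2, upstream: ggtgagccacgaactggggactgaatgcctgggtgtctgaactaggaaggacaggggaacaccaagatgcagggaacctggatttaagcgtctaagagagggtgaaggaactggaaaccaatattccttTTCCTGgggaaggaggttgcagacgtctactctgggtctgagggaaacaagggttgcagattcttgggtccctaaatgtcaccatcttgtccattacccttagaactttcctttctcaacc
Kdr, upstream: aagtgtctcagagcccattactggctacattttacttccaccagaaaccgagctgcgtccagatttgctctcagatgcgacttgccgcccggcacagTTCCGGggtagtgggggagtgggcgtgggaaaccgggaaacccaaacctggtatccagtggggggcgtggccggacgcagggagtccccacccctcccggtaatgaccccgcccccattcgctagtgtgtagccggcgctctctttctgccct
Tek, upstream: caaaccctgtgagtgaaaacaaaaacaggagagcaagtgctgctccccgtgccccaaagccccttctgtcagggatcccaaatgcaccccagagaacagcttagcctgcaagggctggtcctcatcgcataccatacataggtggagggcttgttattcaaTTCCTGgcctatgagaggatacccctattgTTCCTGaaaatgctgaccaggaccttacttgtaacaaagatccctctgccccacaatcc
Tie1, upstream: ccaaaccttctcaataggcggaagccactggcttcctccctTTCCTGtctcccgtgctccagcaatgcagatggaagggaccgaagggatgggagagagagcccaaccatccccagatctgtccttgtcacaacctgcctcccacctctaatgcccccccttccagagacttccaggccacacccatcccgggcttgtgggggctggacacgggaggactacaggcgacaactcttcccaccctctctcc
CAGGAA was found before 4 of the 7 starts, those of Etv2, Tek, Tie1 and 1 of Erg, and before 25.7% of 32851 starts in the table. Tek had 2 matches, which began 89 and 59 bases before its start. CCGGAA was found before Kdr alone, 153 bases upstream, and before 12.0% of all starts. The SoxF-type motif AACAAT was found before Tek and 1 start of Erg (9.42% of all starts), the GATA motif AGATAA before 1 start of Erg (9.99%), and the Nkx2-5 motif TNAAGTG before another start of Erg (10.1%). Such matches are descriptions of the letters and not of binding.

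At day 6, none of the 10 genes was called between R141C and WT in limma, with differences from -0.32 (Tek) to 0.93 (Sox7). Of all tested genes 0.0657% were called. At an unadjusted p under 0.05 the count was also 0 of 10, and 8.53% of all genes. The smallest adjusted p was 0.713, for Pecam1, which was 0.59 ± 0.37 higher in R141C and was the 1 gene whose groups did not overlap, with both R141C arrays above both WT arrays, as for 27.8% of all genes. These counts do not show that the genotypes are alike. With 2 arrays per group the 95% interval of the difference was -0.69 to 0.67 for Tie1, -1.03 to 0.39 for Tek and -1.20 to 0.69 for Sox18. It was -0.50 to 1.27 for the brightest Kdr probe, -0.77 to 1.54 for Etv2, -1.45 to 1.32 for Cdh5 and -0.73 to 2.58 for Sox7. For Fli1 it ran from -2.01 to 3.50, so that a difference of 4-fold in either direction lies inside it.

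At day 0, too, none of the 10 genes was called between genotypes, and 0% of all tested genes were (limma, adjusted p of 0.999 for each of the 10). At an unadjusted p under 0.05 the count was 0 of 10, and 4.50% of all genes. Kdr, Erg and Sox7 were lower in both R141C arrays than in both WT arrays, as were 14.3% of all genes. Sox7 differed by -1.34 ± 0.69 (95% interval -3.0 to 0.31). For Erg the order is of values not above background, and for Kdr it held for the brightest probe only.

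The change of the genotype difference between the days was called in limma for none of the 10 genes and for 0% of all genes. At an unadjusted p under 0.05 the count was 0 of 10, and 5.64% of all genes. It was largest for Sox7, at 2.27 ± 0.98 (limma adjusted p = 0.883), and for Erg, at 1.46 ± 0.71 (adjusted p = 0.888), a value that rests on day 0 signals not above background. The 95% interval for Sox7 was -0.06 to 4.61. On the other Erg probe the value was -0.07 ± 0.79.

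**Figure D3:**
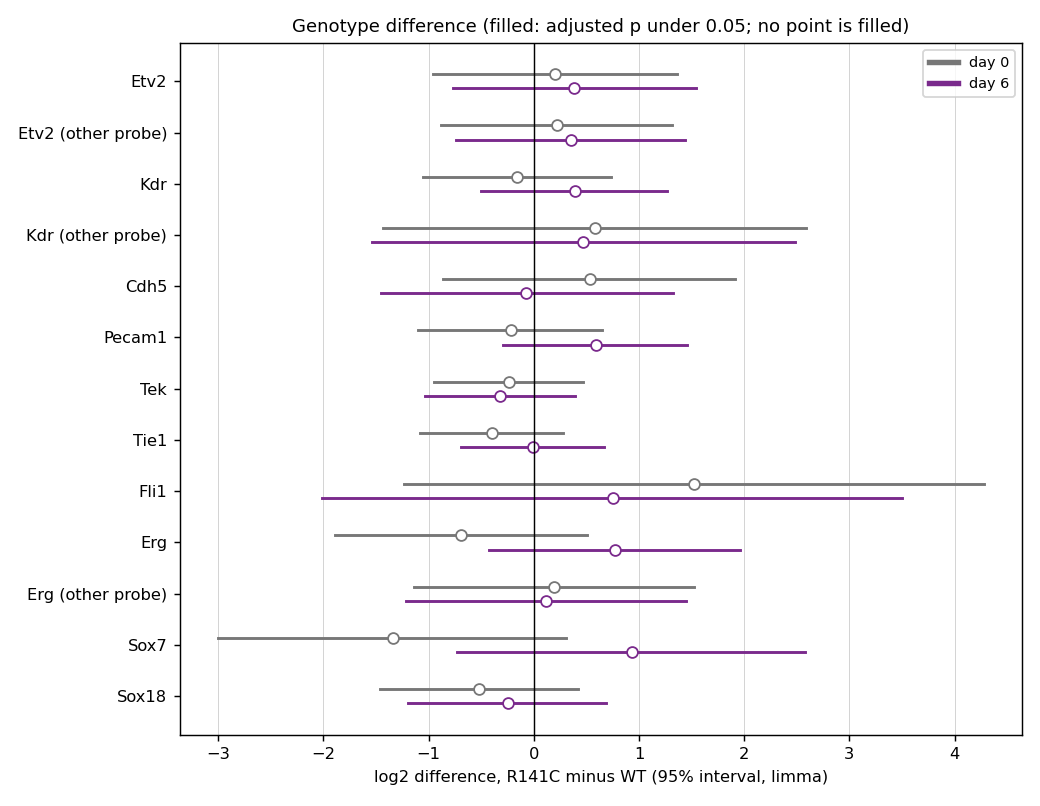
R141C minus WT difference in log2 signal for the 13 probes at day 0 (grey) and at day 6 (purple), with limma's 95% interval. All intervals include 0, none of the points passed an adjusted p of 0.05, and the intervals of Fli1 and Sox7 are the widest among the brightest probes.

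The highest day 6 values were mostly those of 1 R141C culture. R141C day 6 replicate 1 was the highest of the 4 day 6 arrays for 8 of the 10 genes (11 of 13 probes), the exceptions being Tek and Sox18, where WT replicate 2 was highest. The array also had the lowest 75th percentile of the 4 (936.3, against 1243 to 1404), which the scaling sets equal. In unscaled signal it was still the highest for Etv2, Kdr, Fli1, Sox7 and the brightest Erg probe. There it was below another day 6 array for Cdh5 (2110 against 2730), Pecam1 (489 against 596) and Tie1 (915 against 1300). Over all tested genes, in scaled signal, this array was the highest for 43.2%. It exceeded the next array by 1.86 for Sox7, 1.49 for Erg (brightest probe), 1.27 for Fli1, 0.94 and 1.02 for the Kdr probes and 0.83 and 0.74 for those of Etv2, but by 0.21 or less for Cdh5, Pecam1, Tie1 and the other Erg probe. The other 3 day 6 arrays lay within 0.18 of each other for Sox7 and within 0.24 for the brightest Kdr probe. Without this array the genotype difference at day 6 was -0.09 for Sox7, -0.08 for Erg, -0.16 for Fli1, -0.20 for Kdr and -0.30 for Etv2.

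Markers of other cell types also differed on that array. The summed signal of the 10 endothelial genes, in units of each array's 75th percentile, was 38.0 in R141C day 6 replicate 1, 15.9 in replicate 2, and 19.2 and 18.9 in the WT day 6 arrays, against 7.20 to 9.06 at day 0. Bright probes weigh most in such a sum. Here these were the brightest probes of Etv2 and Kdr, on which neither gene was called between the days. The median log2 signal of the 10 genes was 0.87 and -0.17 in R141C day 6 and 0.13 and 0.27 in WT day 6. For 10 cardiomyocyte markers R141C day 6 replicate 1 had the lowest sum at day 6, with 11.5 and 151 in R141C day 6 and 365 and 466 in WT day 6, against 5.92 to 39.3 at day 0. All 10 were well above background on every array but R141C day 6 replicate 1, where 9 were. All 10 were also lowest in R141C day 6 replicate 1 among the day 6 arrays, as were 27.6% of all genes. Troponin T, Tnnt2, was at -0.22 and 3.71 in R141C day 6 and at 4.90 and 5.41 in WT day 6. For the cardiomyocyte markers, 0 of 10 were called between the genotypes at day 6 in limma, and 0.0657% of all tested genes were. All 10 differences, R141C minus WT, were negative, from -4.45 to -1.28. Their median was -3.70, and that of all tested genes was 0.07.

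Blood cells also use Fli1 and Erg, and their markers summed over 12 genes to 343 and 179 in R141C day 6 and to 256 and 578 in WT day 6, against 3.23 to 4.28 at day 0. Their median log2 signal was 2.12 and 0.41 in R141C day 6 and 0.79 and 2.08 in WT day 6. R141C day 6 replicate 1 was thus the highest day 6 array by the median but not by the sum. Of the 11 tested, 6 had their highest day 6 value there, as did 43.2% of all tested genes. Of the 12, 9 were well above background on each day 0 array and 10 or 11 on each day 6 array. The embryonic globin Hba-x was at least 5550-fold higher at day 6 in WT and at least 1760-fold in R141C. Visceral endoderm markers, relevant to Sox7, summed over 8 genes to 22.8 and 61.3 in R141C day 6 and to 41.6 and 45.5 in WT day 6, against 0.944 to 1.25 at day 0. Their median was 0.88 and 1.93 in R141C day 6 and -0.20 and 1.21 in WT day 6. Smooth muscle and fibroblast markers, 8 genes, summed to 76.1 and 157 in R141C day 6 and to 145 and 229 in WT day 6, against 59.9 to 500.4 at day 0. The sums of 8 ES cell pluripotency markers were 107.9 and 87.1 in R141C day 6 and 72.8 and 62.2 in WT day 6, against 363.5 to 565.7 at day 0. Of these 8, 5 had their highest day 6 value in R141C day 6 replicate 1, as did 43.2% of all tested genes. The part of these cells in the values of the endothelial genes was not tested.

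**Figure D4:**
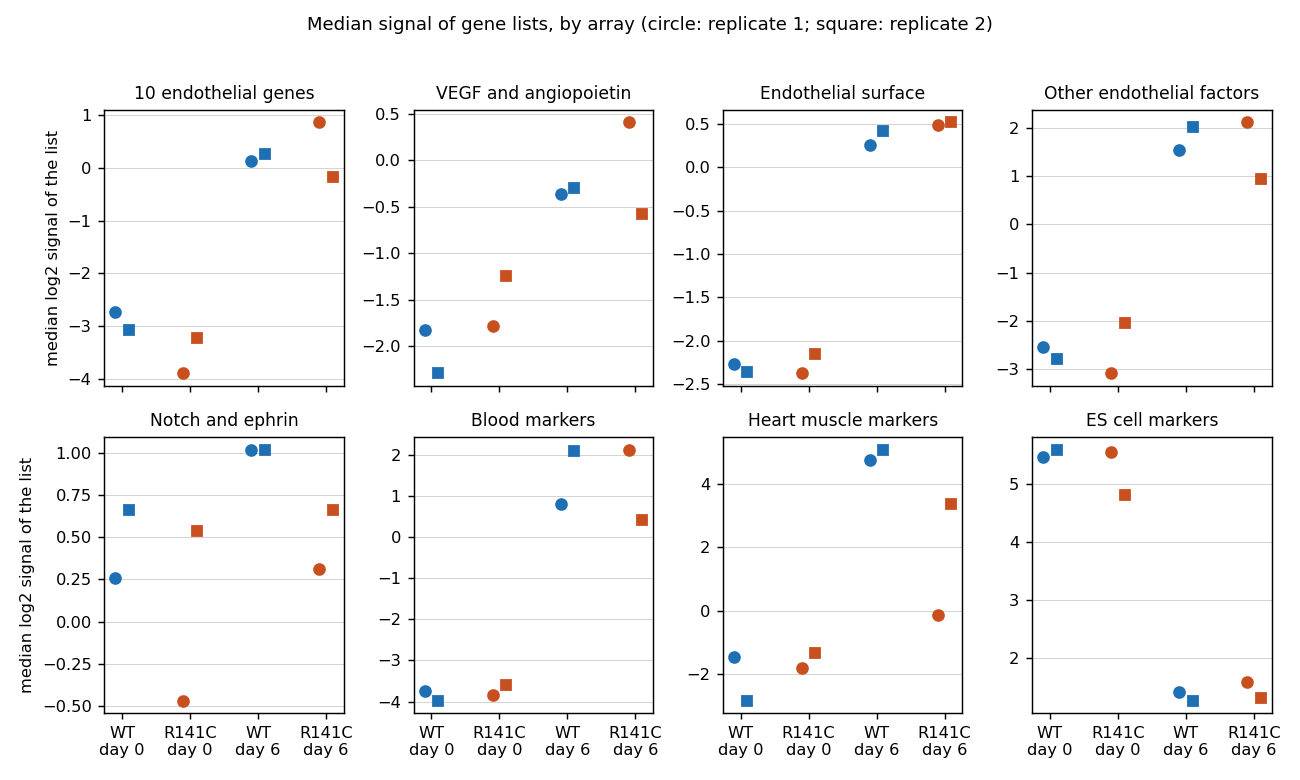
Median log2 signal (75th percentile of the array set to 0) of 8 gene lists on each array, with circles for replicate 1 and squares for replicate 2, WT in blue and R141C in orange. R141C day 6 replicate 1 is the highest day 6 array for the 10 endothelial genes (0.87) and the lowest for the heart muscle markers (-0.13), and the y axes differ between panels.

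Other genes of the pathway were read from lists chosen by function, with earlier results of these data known. Their counts are therefore descriptions and not independent support. Of 15 VEGF and angiopoietin ligands, receptors and co-receptors, 7 rose and 1 fell in WT and 5 rose in R141C, where 24.0% and 15.6% of all tested genes were called and 11.0% and 7.60% were called higher. The VEGF co-receptor Nrp1 rose by 6.16 ± 0.75 in WT and 4.89 ± 0.75 in R141C on the log2 scale (limma, adjusted p of 0.0026 and 0.00836). Flt1, another VEGF receptor gene of early vessels, rose by 3.27 ± 0.53 and 2.19 ± 0.53 (adjusted p of 0.00707 and 0.0366). Angpt1, a ligand of Tek, was 4.83 ± 0.77 higher at day 6 in WT (adjusted p = 0.00682), where the phosphatase Ptprb rose by 3.46 ± 0.90 (adjusted p = 0.0342). In R141C their differences, 1.70 ± 0.77 and 1.81 ± 0.90, did not pass (adjusted p of 0.194 and 0.228). The ligand Vegfa rose by 2.20 ± 0.57 in WT and 3.11 ± 0.57 in R141C (adjusted p of 0.0347 and 0.016), and the BMP receptor Acvrl1 by 1.74 ± 0.35 and 2.74 ± 0.35 (0.0153 and 0.00503). The gene that fell in WT was Eng, a TGF-beta co-receptor, by 1.30 ± 0.30 (adjusted p = 0.0238), with a difference of 0.05 ± 0.30 in R141C (adjusted p = 0.937). The list's median difference was 1.62 in WT and 1.44 in R141C.

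Of 26 endothelial surface, junction and secreted genes, 25 were tested. In WT 17 rose and 1 fell, and in R141C 16 rose and 1 fell, against 11.0% and 7.60% of all genes called higher. Among them Emcn, Lyve1, Stab1, Stab2 and Cd93 entered the test through day 6 groups alone, and Cav1 through day 0 groups alone. Calls of these genes support nothing. Cav1, not above background on any day 6 array, was at least 2.23-fold lower in WT and at least 5.85-fold lower in R141C (limma, adjusted p of 0.0313 and 0.0416). Cd93 rose by 7.53 ± 0.74 in WT and 6.75 ± 0.74 in R141C (adjusted p of 0.00128 and 0.00283; 1 of 2 day 0 arrays above background in each genotype), and Icam2 by 6.53 ± 0.42 and 5.64 ± 0.42 (adjusted p of 0.000392 and 0.00096). Ramp2, a partner of the adrenomedullin receptor, rose by 4.25 ± 0.36 and 4.35 ± 0.36 (0.000802 and 0.00123). The scavenger receptor Stab1 was at least 65.0-fold higher in WT and at least 39.9-fold in R141C, and the sialomucin Emcn at least 21.5-fold in WT, while its R141C difference did not pass (limma, adjusted p = 0.068). The median difference over the list was 1.63 in WT and 2.28 in R141C (1.63 and 2.04 with genes at their bound).

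Of 21 further endothelial and hemangioblast transcription factors, 20 were tested. In WT 14 rose and 1 fell, and in R141C 12 rose and 1 fell, against 11.0% and 7.60% of all genes called higher. Klf2, which ES cells also express, was lower in both (by 2.38 ± 0.31 and 2.18 ± 0.31, limma adjusted p of 0.00323 and 0.00652). Mef2c, Prox1, Heyl and Hey2 entered the test through day 6 groups alone, and their calls support nothing. Sox17, the third SoxF factor, rose by 6.11 ± 0.41 and 6.60 ± 0.41 (adjusted p of 0.000431 and 0.000697), and Tal1, a factor of blood and early endothelium, by 5.12 ± 0.79 and 6.31 ± 0.79 (0.00594 and 0.0045). Foxc2, a forkhead factor of mesoderm and vessels, rose by 7.82 ± 0.95 in WT and 3.65 ± 0.95 in R141C (0.00262 and 0.0461), with 1 of 2 WT day 0 arrays above background. Its difference between the genotypes at day 6, -3.63 ± 0.95, did not pass (adjusted p = 0.391). It was the largest of the list, where the smallest adjusted p in limma was that of Hey1 (-1.11 ± 0.20, 0.219). Of the 20 differences at day 6, 12 were positive and 8 negative, with a median of 0.04, and that of all tested genes was 0.07. Lyl1 rose by 4.87 ± 0.63 in WT and 6.49 ± 0.63 in R141C (0.00335 and 0.00194), and Lmo2, a partner of Tal1, by 4.28 ± 0.63 and 5.07 ± 0.63 (0.00515 and 0.00452). Mef2c was at least 31.4-fold higher in WT and at least 6.35-fold in R141C (limma, adjusted p of 0.00297 and 0.0276).

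Of 8 arterial and venous Notch and ephrin genes, 4 rose in WT and 3 in R141C, against 11.0% and 7.60% of all genes, and none fell. Dll4 is counted in both, but it entered the test through day 6 groups alone and its calls support nothing. The chemokine receptor Cxcr4 rose by 4.47 ± 0.46 in WT and 5.14 ± 0.46 in R141C (limma, adjusted p of 0.00147 and 0.00151). The Notch ligand Dll4 was at least 12.2-fold and at least 5.45-fold higher, and Ephb4, of venous endothelium, rose by 1.64 ± 0.23 and 1.26 ± 0.23 (adjusted p of 0.0044 and 0.0155). The arterial ephrin Efnb2 was called in WT alone, where it rose by 1.26 ± 0.29 (adjusted p = 0.0221), with a difference of 0.42 ± 0.29 in R141C (adjusted p = 0.373). No gene of these 4 lists was called between the genotypes at either day or in the change between the days.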

How the data were processed

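Per the labels' protocols, Cy3-labelled cRNA was hybridized to single-colour Agilent arrays. Per the file headers, Feature Extraction 11.5.1.1 made the scanner files, while the submitters' processing notes give 10.5.1.1. The deposited processed signal is a background-subtracted intensity, not scaled between arrays. A deposited matrix of log2 values, with 36388 probes filled and column medians of 8.99 to 9.04, served as an alternative. The other deposited columns used are spot flags.

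Control spots and 131 to 251 outlier spots per array were left out, none was saturated, and spots of a probe were averaged as log2 values. log2 signal minus the array's 75th percentile was fitted with limma 3.58.1 (R 4.3.3) over all 8 arrays as 4 group means, with 4 residual degrees of freedom, two-sided and adjusted by Benjamini-Hochberg over 25888 genes. Testing required the brightest probe to be well above background throughout at least 1 group. Precision is limited by the number of arrays. The fit was tested on simulated data.

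The 10 genes and the lists were chosen with earlier results of these data known. All 10 are described. From each related list, up to 4 called genes with the largest change per comparison are named, with Pou5f1, Nanog and Tnnt2 as label checks and the 5 genes of nearest profile. The genes of 5 or fewer that fell, and Foxc2 at day 6, were named after their values were seen. The alternatives were other scalings, background correction, deposited values, filters, probe choices, fit settings, replicate blocks and leaving out arrays.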

Additional observations from a re-analysis of the deposited data

How the results depend on the processing

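In WT, 6 to 9 of the 10 genes were called higher at day 6 under the alternatives, and in R141C 7 to 9. The exception was a filter on all 8 arrays, which leaves Cdh5, Tie1, Fli1 and Erg untested and gave 3 in each. Under the alternatives that kept all 8 arrays or both arrays of each group compared, 19.8% to 25.8% of all tested genes were called in WT. In R141C it was 9.31% to 17.1%, in either direction. Leaving out 1 array gave 5 to 8 in each genotype. Apart from the filter on all 8 arrays, these counts include Erg, Cdh5 and Fli1 wherever they were called. The genotype differences at day 6 and at day 0 and their change gave 0 calls among the 10 genes under every setting run. Differences between replicates 1 and 2 correlated across genes with r of 0.339 between R141C day 0 and R141C day 6. For the other pairs of groups r ran from -0.136 to 0.0789. The main fit used no pairing, and whether the replicate numbers pair the R141C samples was not settled. With a replicate block, 7 and 8 genes were called in WT and R141C (24.1% and 15.4% of all genes, in either direction). A crossed block, chosen after seeing the data, swapped the R141C day 0 arrays. It gave 6 and 7 (19.8% and 12.2% of all genes). Sox7 in WT missed the threshold with quantile normalization (adjusted p = 0.0548), the deposited values (0.0564), the replicate block (0.0612) and the crossed block (0.0565). Etv2 passed in WT and R141C with the replicate block (0.02 and 0.0205), a median shift (0.0383 and 0.0438), the mean of its probes (0.0487 and 0.049) and the other probe (0.0383 and 0.0406). It also passed in WT with only the arrays compared (0.0491) and without either R141C day 6 array (0.0262 each), and in R141C with trend and robust settings (0.0458) and without R141C day 6 replicate 2 (0.0257). Kdr passed with the mean of its probes (0.0168 and 0.0178) and the other probe (0.00973 and 0.0151), and in R141C without R141C day 6 replicate 2 (log2 difference 1.16, adjusted p = 0.0341).

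Differences that were not called changed sign in some settings, and the cause was not tested. Tie1 at day 6 between genotypes was 0.01 with normexp and 0.01 with the deposited values, Kdr at day 0 was 0.21 with the mean of its probes and 0.58 with the other probe, and Erg at day 0 was 0.19 with the other probe. The change of the genotype difference was 0.44 for Fli1 with normexp, and -0.07 for Erg and -0.11 for Kdr with the other probe. Leaving out 1 array, the genotype difference at day 6 ranged from -0.47 to 0.34 for Cdh5, -0.08 to 1.61 for Erg, -0.30 to 1.06 for Etv2, -0.16 to 1.65 for Fli1, -0.20 to 0.98 for Kdr, -0.60 to 0.10 for Sox18, -0.09 to 1.95 for Sox7 and -0.19 to 0.17 for Tie1. At day 0 it ranged from -0.39 to 1.45 for Cdh5, -0.19 to 0.59 for Etv2, -0.21 to 3.26 for Fli1, -0.69 to 0.24 for Pecam1 and -0.62 to 0.14 for Tek. The change between days ranged from -1.52 to 0.33 for Cdh5, -0.50 to 0.86 for Etv2, -2.51 to 0.96 for Fli1, -0.04 to 1.14 for Kdr, -0.18 to 0.71 for Sox18 and -0.46 to 0.30 for Tek. Day 6 minus day 0 ranged from -0.03 to 1.16 for Kdr and -0.37 to 0.57 for Pecam1 in R141C, and from -0.02 to 0.06 for Kdr in WT.

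Over all genes, 6206 were called in WT and 4049 in R141C. Without WT day 0 replicate 2 and WT day 6 replicates 1 and 2 in turn, the WT count was 4015, 2474 and 2151. In R141C it was 2460 with only the arrays compared 1624 and 2424 without R141C day 0 replicate 1 or 2, 2570 and 2754 without R141C day 6 replicate 1 or 2, and 2552 without either WT day 6 array. At day 6 between genotypes 17 genes were called, 117 without R141C day 6 replicate 2, 8 without either WT day 0 array, 0 without any of the other 5 arrays, and 0 with no filter, with a filter on all 8 arrays, with trend and robust settings, with only the arrays compared and with either block, and 1 with the deposited values. At day 0 the 0 calls became 1 with normexp and 1 with the filter on all 8 arrays, and for the change between days 7 with quantile normalization and 1 with the deposited values. The WT calls split into 2860 higher and 3346 lower, and into 5702 and 3270 with no filter. A median shift moved the median of all genes in WT from -0.12 to 0.00.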

Other observations

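By root mean square distance over the 8 arrays, after centring each gene on its own mean and leaving the 10 genes themselves out, the 5 genes nearest to the median profile of the 10 endothelial genes were Aplnr (0.279), Zc3h6 (0.366), AK144266 (0.368), Naip2 (0.371) and 6720407P12Rik (0.387), in log2 units. Aplnr encodes the apelin receptor, a gene of mesoderm and early vessels, and is also in the endothelial surface list. Its log2 signals were -2.65 and -2.47 in WT day 0, -2.73 and -2.76 in R141C day 0, 0.88 and 0.69 in WT day 6, and 1.15 and 0.38 in R141C day 6. Among the 10 genes themselves, Sox18 (0.302) and Sox7 (0.545) lay nearest to their median profile and Fli1 (2.396) and Pecam1 (1.925) farthest.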
